A study of Mus musculus with 8 samples.

Results

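The genes described here handle iron and haem in phagocytes taken from mouse brains that carried a glioma. They are 10 genes chosen by symbol, Hmox1, Fth1, Ftl1, Slc40a1, Slc11a1, Tfrc, Cp, Lcn2, Ireb2 and Hpx, out of 50763 gene rows in the deposited tables. All 10 had a row, and 9 passed the filter on low counts, as did 16608 genes of the whole table. Hpx did not pass and is given by its reads alone. The cells came from brains on day 23 after implantation of GL261-mCherry-EGFP, a mouse glioma line that carries 2 fluorescent proteins. Live cells positive for both CD45.2, a leukocyte surface protein, and the tumour's mCherry were sorted, and their total RNA was sequenced. Recipients were C57BL/6 animals, either wild-type (WT) or B cell-deficient (muMT). Treatment was a control IgG of matching isotype or anti-CTLA-4, which blocks a T cell checkpoint receptor. The 4 groups were WT isotype, WT anti-CTLA-4, muMT isotype and muMT anti-CTLA-4, with 2 libraries in each and the same tumour in all. Ages, the number of animals behind a library and pooling of animals were not given in the sources used here, so the p-values speak only for the spread among these libraries, which may be technical.

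Macrophages recycle the iron of the body. Haem oxygenase 1, the product of Hmox1, opens the haem ring and frees its iron. Ferritin, a hollow shell of heavy chains (Fth1) and light chains (Ftl1), stores iron, and ferroportin (Slc40a1) is the only known exporter of it. The transferrin receptor (Tfrc) brings iron in from transferrin. Iron regulatory proteins, of which Ireb2 encodes one, bind hairpins called iron-responsive elements in messenger RNA when iron is scarce. Bound in a 5′ untranslated region they block translation, and bound in the 3′ untranslated region of Tfrc they protect the messenger from decay. Part of the control of these genes therefore acts on translation, which read counts do not measure.

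The hairpins of the genes concerned are shown because they distinguish the messengers known to answer to iron through translation from Tfrc, which answers through stability. They were found in GENCODE M21 transcripts of the GRCm38 build by searching untranslated regions, sense strand only, for a bulged C, 5 bases, the loop CAGTG followed by any base but G, and 5 bases that pair with the first 5 (G with T allowed). The capitals mark the 6-base loop, and each line runs 5′ to 3′ with flanks up to 30 bases.
Fth1, 5′ untranslated region: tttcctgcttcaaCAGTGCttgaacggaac
Ftl1, 5′ untranslated region: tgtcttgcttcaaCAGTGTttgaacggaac
Slc40a1, 5′ untranslated region: ccaacttcagctaCAGTGTtagctaagttt
Tfrc, 3′ untranslated region: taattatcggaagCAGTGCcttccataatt
Tfrc, 3′ untranslated region: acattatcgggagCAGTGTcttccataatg
Tfrc, 3′ untranslated region: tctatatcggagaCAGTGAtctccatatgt
Tfrc, 3′ untranslated region: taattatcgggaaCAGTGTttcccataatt

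Over all coding genes the pattern occurred in the 5′ untranslated region of 23 of 20899 (0.11%) and in the 3′ untranslated region of 100 of 21685 (0.461%). The members held it in the 5′ region of 3 genes and in the 3′ region of 1 gene, Tfrc, which had 4 matches. The Fth1 and Ftl1 sites had the same base at 27 of 30 positions, whereas the Fth1 and Slc40a1 sites shared 13 of 30. A match is a description of letters, and no match in the other 6 genes says only that this pattern was not in their annotated regions.

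Reads assigned to genes ranged from 24784639 to 31289104 per library. Summed phagocyte markers (12 genes, among them Itgam, Csf1r, Cd68 and C1qa) lay between 17200.4 and 21201 CPM (reads of a gene relative to all reads in genes, after scaling of the libraries by TMM) in all 8 libraries, and none was at 0. Ighm, the gene disrupted in muMT mice, had 0 reads in every library, WT included, so it could not check the host label. Jchain, a plasma cell gene, had 0 and 2 reads in the isotype and anti-CTLA-4 groups of muMT and 82 and 135 in those of WT. Reads mapping to several places, which were counted for no gene, made up 7.56% to 8.55% of reads in muMT and 4.29% to 5.68% in WT. Uniquely mapped reads outside genes made up 18.6% to 20.8% in muMT and 28.4% to 33.3% in WT. Summed markers of other myeloid states differed between groups too. For 7 monocyte markers (such as Ly6c2 and Ccr2) the sums were 555 to 580.3 CPM under isotype and 762 to 771 CPM under anti-CTLA-4 in WT, and 574 to 602 CPM and 2522 to 2526 CPM in muMT. Most of the muMT anti-CTLA-4 sum was Chil3, at 260.03 and 1740.2 CPM in muMT and 124 and 30.0 CPM in WT (isotype, then anti-CTLA-4). Of the 7, 4 rose with the antibody in WT and 1, Chil3, fell, beside 14.7% and 15.9% of all tested genes. In muMT 6 rose and 0 fell, beside 22.1% and 20.4%. All these marker changes were at least 1.5-fold. Plac8 went from 63.1 to 157 CPM in WT and from 45.9 to 86.2 CPM in muMT. F10 went from 145 to 223 CPM in WT and from 101 to 292 CPM in muMT. Under anti-CTLA-4, 2 of the 7 markers were higher in WT than in muMT, Ly6c2 (165 against 97.1 CPM) and Plac8 (157 against 86.2 CPM). The 4 lower there were Chil3, Ccr2 (167 against 274 CPM), F10 (223 against 292 CPM) and Vcan (15.9 against 27.2 CPM). Of all tested genes 27.4% were higher there and 28.7% lower. For 8 microglia markers the sums were 976 to 982 CPM and 853 to 861 CPM in WT, and 985 to 1008 CPM and 682 to 684 CPM in muMT, with 5 of 8 lower after the antibody in WT and 7 of 8 in muMT. For 7 border-associated macrophage markers (such as Mrc1 and Cd163) they were 1894 to 1976 CPM and 751 to 759 CPM in WT, and 2638 to 2754 CPM and 2587 to 2606 CPM in muMT, with no marker of these lists at 0. Most of each sum was Mrc1, at 1531 and 441 CPM in WT and 2121 and 2129 CPM in muMT. With the antibody 1 of the 7 rose and 6 fell in WT, where 14.7% of all tested genes rose and 15.9% fell. In muMT 4 rose and 2 fell, beside 22.1% and 20.4% of all tested genes. There F13a1 went from 395 to 225 CPM and Pf4 from 146 to 193 CPM. The part of these populations in the results below was not tested. The mapping shares moved with the host in every comparison of WT with muMT below, and their part in those results was not tested either. In sorted bulk RNA, fewer cells of a type and less RNA per cell cannot be told apart.

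**Figure D1:**
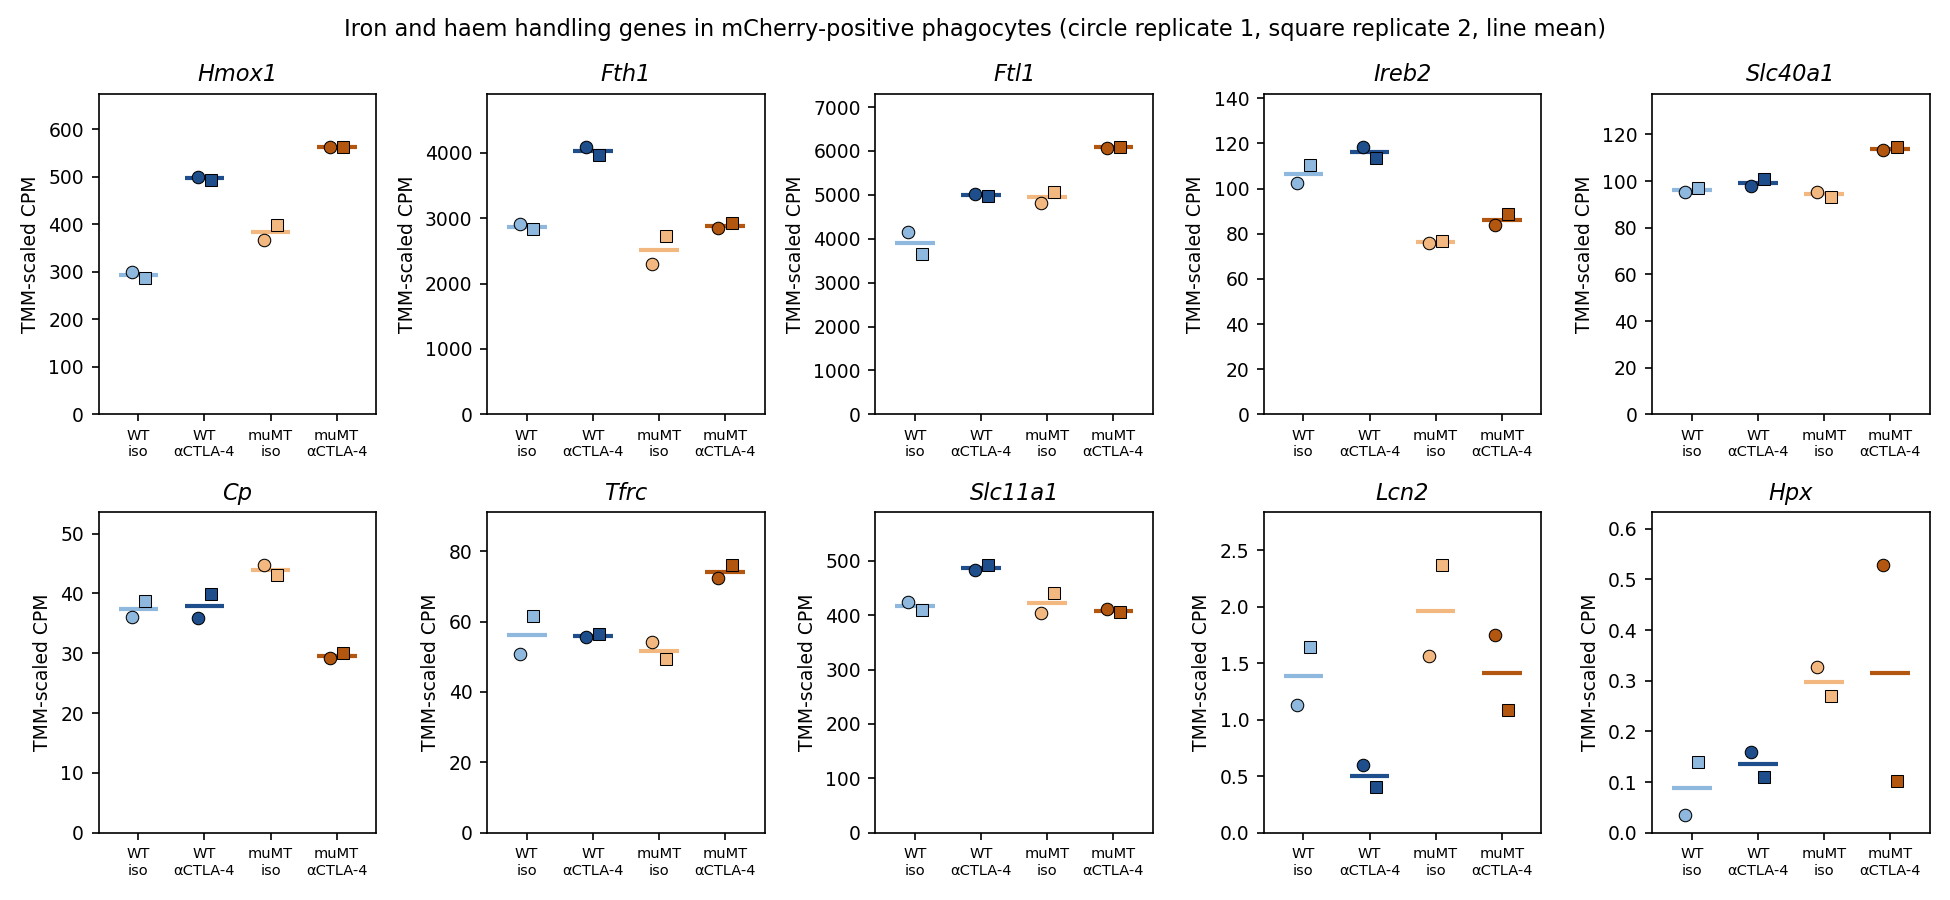
Level of each of the 10 genes in each library, in TMM-scaled CPM (y axes start at 0), by group (x axis); circles are replicate 1, squares replicate 2 and lines the mean of 2 libraries. Hmox1, Fth1 and Ftl1 are higher with anti-CTLA-4 in both hosts, Tfrc and Slc40a1 stand highest in muMT anti-CTLA-4, and Lcn2 and Hpx are near the floor.

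A gene was called changed at a Benjamini-Hochberg adjusted p under 0.05 in edgeR's quasi-likelihood test over all 16608 genes. With anti-CTLA-4, haem oxygenase and both ferritin chains rose in WT and in muMT hosts alike. The transferrin receptor and ferroportin rose in muMT, where ceruloplasmin fell. Slc11a1, a phagosomal metal transporter, rose in WT, and Lcn2, which encodes a binder of bacterial siderophores, fell there. In WT, 4 of the 9 tested genes rose and 1 fell, where 30.5% of all tested genes were called (14.7% higher, 15.9% lower). In muMT, 6 rose and 1 fell, where 42.5% were called (22.1% higher, 20.4% lower). The median log2 fold change of the 9 genes was 0.12 in WT and 0.20 in muMT, against -0.0095 and -0.0034 over all tested genes. Both shares are to be read against these backgrounds, since many genes moved. Most of the changes were small. Only Hmox1 (higher) and Lcn2 (lower) in WT passed with at least 1.5-fold, as 10.5% of all tested genes did, and in muMT none of the 9 reached 1.5-fold, against 15.5% of all tested genes.

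Hmox1 showed the largest rise of the 9 genes with the antibody in each host. Its level was 299.7 and 287 CPM in the WT isotype libraries and 499 and 494 CPM in WT anti-CTLA-4. In muMT it was 367 and 399 CPM with isotype and 561 and 562 CPM with anti-CTLA-4. The treated libraries lay above the isotype libraries of the same host with no overlap, and the muMT libraries lay above the WT libraries under the same antibody. The rise was 1.69-fold in WT (log2 0.76 ± 0.05 SE, adjusted p = 1.96e-14) and 1.47-fold in muMT (log2 0.55 ± 0.04, adjusted p = 1.97e-11). Hmox1 was lower in WT than in muMT by 0.38 on the log2 scale under isotype (log2 -0.38 ± 0.05, adjusted p = 5.45e-08) and by less under anti-CTLA-4 (log2 -0.18 ± 0.04, adjusted p = 0.00114). From lowest to highest the groups therefore ran WT isotype, muMT isotype, WT anti-CTLA-4 and muMT anti-CTLA-4. The effect of the antibody was larger in WT by 0.21 ± 0.06 on the log2 scale (adjusted p = 0.0111), but this call was lost without muMT anti-CTLA-4 replicate 1 (adjusted p = 0.0637) or replicate 2 (0.0598) and without WT anti-CTLA-4 replicate 1 (0.0655) or replicate 2 (0.0502), with adjusted p up to 0.811 over all alternatives.

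Fth1, the ferritin chain with the ferroxidase site that oxidises iron for storage, rose in both hosts and more so in WT. The WT isotype libraries held 2906 and 2831 CPM and the WT anti-CTLA-4 libraries 4091 and 3970.1 CPM. The muMT libraries held 2298 and 2724 CPM with isotype and 2854 and 2924 CPM with anti-CTLA-4. WT anti-CTLA-4 stood apart from all other libraries, while the muMT isotype pair was spread more widely than any other pair. The rise was 1.41-fold in WT (log2 0.49 ± 0.05, adjusted p = 3.89e-08) and 1.15-fold in muMT (log2 0.20 ± 0.05, adjusted p = 0.00274). The muMT rise was not called by DESeq2's Wald test (adjusted p = 0.0795), and it was 0.09 without muMT isotype replicate 1 (adjusted p = 0.0416) and 0.34 without muMT isotype replicate 2. The effects differed by 0.29 ± 0.07 (WT minus muMT, adjusted p = 0.00302), a call lost without WT isotype replicate 2 (adjusted p = 0.0691) and in DESeq2 (0.0569), with adjusted p up to 0.379 over all alternatives. The size of the difference was 0.16 without muMT isotype replicate 2 and 0.40 without muMT isotype replicate 1.

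Ftl1, the light chain, which aids core formation inside the shell, rose by a similar amount in both hosts. Its level was 4159.8 and 3662 CPM in WT isotype and 5015 and 4985 CPM in WT anti-CTLA-4. In muMT it was 4811 and 5072 CPM with isotype and 6077 and 6091 CPM with anti-CTLA-4. The treated libraries of each host lay above its isotype libraries. The rise was 1.28-fold in WT (log2 0.35 ± 0.05, adjusted p = 2.21e-07) and 1.23-fold in muMT (log2 0.30 ± 0.05, adjusted p = 2.62e-06). The test of the difference between the 2 effects gave 0.05 ± 0.06 (adjusted p = 0.545). That value was 0.14 (adjusted p = 0.0302) without WT isotype replicate 1 and -0.04 (adjusted p = 0.628) without WT isotype replicate 2.

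The chains differed in opposite directions between the hosts. Fth1 was higher in WT than in muMT under anti-CTLA-4 (log2 0.48 ± 0.05, adjusted p = 2.21e-08), while Ftl1 was lower in WT there (log2 -0.28 ± 0.05, adjusted p = 3.85e-06). Under isotype Ftl1 was again lower in WT (log2 -0.34 ± 0.05, adjusted p = 5.36e-07). The isotype difference in Fth1 was smaller (log2 0.19 ± 0.05, adjusted p = 0.00478) and was lost without muMT isotype replicate 1 (log2 0.07, adjusted p = 0.148; 0.32 without muMT isotype replicate 2), without WT isotype replicate 1 (adjusted p = 0.122) or replicate 2 (0.0711) and in DESeq2 (0.105). Within libraries the Ftl1 reads per Fth1 read numbered 1.43 and 1.29 under isotype and 1.23 and 1.26 under anti-CTLA-4 in WT. The muMT libraries had 2.09 and 1.86 with isotype and 2.13 and 2.08 with anti-CTLA-4. All 4 muMT libraries thus lay above all 4 WT libraries in this ratio, which does not depend on scaling between libraries, and the comparison was chosen after the values were seen. Ferritin genes have processed copies in the mouse genome, and the 15 rows of such copies held 1542 reads in all, 0.0837% of the reads of Fth1 and Ftl1. Reads that fit a gene and a copy equally well were not counted. How many ferritin reads were lost in this way in each host was not measured, and the multimapping shares given above are those of all reads.

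**Figure D2:**
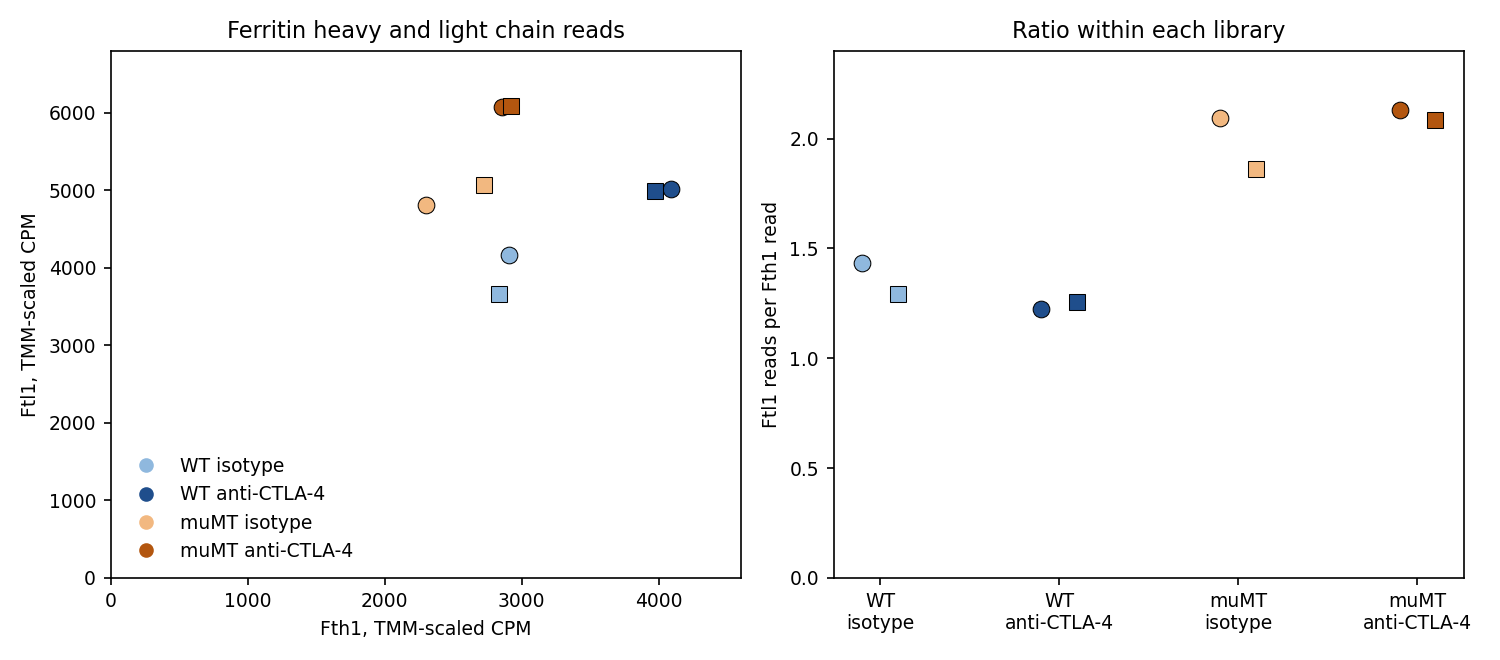
Left, Ftl1 (y axis) against Fth1 (x axis) in TMM-scaled CPM, with 1 point per library; right, Ftl1 reads per Fth1 read (y axis) by group (x axis); circles are replicate 1 and squares replicate 2. The ratio lies between 1.23 and 1.43 in the 4 WT libraries and between 1.86 and 2.13 in the 4 muMT libraries.

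Ireb2, which encodes iron regulatory protein 2, a protein that is degraded when iron is ample, followed the host. It stood at 102 and 111 CPM in WT isotype, 118 and 114 CPM in WT anti-CTLA-4, 75.9 and 76.9 CPM in muMT isotype and 83.7 and 88.9 CPM in muMT anti-CTLA-4. Every WT library lay above every muMT library. WT was higher under isotype (log2 0.48 ± 0.05, adjusted p = 2.75e-08) and under anti-CTLA-4 (log2 0.43 ± 0.05, adjusted p = 8.02e-08). With the antibody Ireb2 rose slightly in muMT (log2 0.18 ± 0.06, adjusted p = 0.0107), a call lost without muMT anti-CTLA-4 replicate 2 (adjusted p = 0.146). In WT the change was 0.12 ± 0.05 (adjusted p = 0.0857), and it was called without muMT isotype replicate 1 (adjusted p = 0.025) or replicate 2 (0.0245), without WT isotype replicate 2 (0.0323) and in a fit of the WT libraries alone (0.0461). The effects were not shown to differ between hosts (difference -0.05 ± 0.08, adjusted p = 0.632).

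Slc40a1, the ferroportin gene, changed in muMT. Its level was 95.1 and 97.0 CPM in WT isotype, 98.0 and 101 CPM in WT anti-CTLA-4, 95.3 and 93.2 CPM in muMT isotype and 113 and 115 CPM in muMT anti-CTLA-4. The muMT anti-CTLA-4 pair lay above the other 6 libraries, which spanned a narrow range. The rise in muMT was 1.21-fold (log2 0.27 ± 0.05, adjusted p = 4.67e-05), and the value in WT was 0.05 ± 0.05 (adjusted p = 0.518). The difference of the effects was -0.22 ± 0.07 (WT minus muMT, adjusted p = 0.0134), and its adjusted p was 0.0681 without muMT anti-CTLA-4 replicate 2 and 0.0777 without WT anti-CTLA-4 replicate 1. Under anti-CTLA-4 Slc40a1 was lower in WT than in muMT (log2 -0.20 ± 0.05, adjusted p = 0.00138), and under isotype the value was 0.03 ± 0.05 (adjusted p = 0.703). Per Slc40a1 read there were more Hmox1 reads with the antibody in each host: 4.96 and 4.91 in muMT anti-CTLA-4 and 5.09 and 4.90 in WT anti-CTLA-4, against 3.85 and 4.28 for muMT isotype and 3.15 and 2.96 for WT isotype.

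Cp, which encodes ceruloplasmin, a copper ferroxidase that assists export through ferroportin, fell in muMT. It was at 44.7 and 43.1 CPM in muMT isotype and 29.1 and 30.0 CPM in muMT anti-CTLA-4, against 36.1 and 38.7 CPM in WT isotype and 35.8 and 39.8 CPM in WT anti-CTLA-4. The muMT pairs held the highest and the lowest levels of the 4 groups, and the WT pairs overlapped. The fold change was 0.673 in muMT (log2 -0.57 ± 0.07, adjusted p = 8.42e-08) and the WT value was 0.02 ± 0.07 (adjusted p = 0.877). The effects differed by 0.59 ± 0.10 (adjusted p = 2.01e-05). WT was below muMT under isotype (log2 -0.23 ± 0.07, adjusted p = 0.00792), a call lost without WT isotype replicate 1 (adjusted p = 0.103), and above it under anti-CTLA-4 (log2 0.36 ± 0.07, adjusted p = 0.000102). Cp is also made by astrocytes and choroid plexus. The summed CPM of 6 choroid plexus and ependymal markers was 16.4 to 16.96 in muMT isotype, 7.52 to 7.71 in muMT anti-CTLA-4, 19.0 to 21.5 for WT under isotype and 28.1 to 28.8 for WT under anti-CTLA-4, with none of the 6 at 0. The 7 astrocyte markers summed to 59.1 to 61.1, 61.6 to 62.5, 62.2 to 62.8 and 68.9 to 71.1 CPM in the same order, with none at 0. Of the 7 astrocyte markers, 2 rose and 1 fell with the antibody in muMT, and 2 rose and 0 fell in WT. In muMT Slc1a3 went from 14.1 to 7.79 CPM and Aldoc, the largest part of the sum, from 24.6 to 29.3 CPM. Fibroblast and mural markers moved with Cp in muMT, where 8 of 8 fell and their sum went from 367 to 371 CPM down to 133 to 135 CPM. In WT 5 of the 8 fell and 1 rose (254.6 to 265 CPM, then 179 to 183 CPM), with none at 0. The part of any of these cells in the Cp result was not tested.

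Tfrc, the gene with 4 matches to the hairpin pattern shown above, also changed in muMT. Its level was 50.9 and 61.6 CPM in WT isotype, 55.6 and 56.5 CPM in WT anti-CTLA-4, 54.1 and 49.4 CPM in muMT isotype and 72.3 and 75.9 CPM in muMT anti-CTLA-4. The muMT anti-CTLA-4 pair lay above the other 6 libraries, and the WT anti-CTLA-4 pair lay within the WT isotype pair. The rise in muMT was 1.43-fold (log2 0.52 ± 0.07, adjusted p = 3.76e-07). In WT the value was -0.0046 ± 0.07 (adjusted p = 0.974), and without WT isotype replicate 2 it was 0.14 (adjusted p = 0.186). The difference of the effects was -0.52 ± 0.10 (WT minus muMT, adjusted p = 9.7e-05). Tfrc was lower in WT than in muMT under anti-CTLA-4 (log2 -0.40 ± 0.07, adjusted p = 1.29e-05), and under isotype the value was 0.12 ± 0.07 (adjusted p = 0.186), called without WT isotype replicate 1 (log2 0.25, adjusted p = 0.00783).

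Slc11a1 encodes NRAMP1, a divalent metal transporter of the phagosome, whose activity read counts do not measure. It stood at 423 and 409 CPM in WT isotype, 483 and 491 CPM in WT anti-CTLA-4, 404 and 440.4 CPM in muMT isotype and 410.5 and 405 CPM in muMT anti-CTLA-4. The WT anti-CTLA-4 pair lay above the other 6 libraries, which overlapped one another. The rise in WT was 1.17-fold (log2 0.23 ± 0.04, adjusted p = 0.000177), the muMT value was -0.05 ± 0.04 (adjusted p = 0.387), and the difference was 0.28 ± 0.06 (adjusted p = 0.0008). Under anti-CTLA-4 Slc11a1 was higher in WT than in muMT (log2 0.26 ± 0.04, adjusted p = 1.51e-05), and under isotype the value was -0.02 ± 0.04 (adjusted p = 0.739).

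Lcn2 and Hpx, whose products sequester siderophores and free haem, were close to the detection limit. Lcn2 had 32 and 47 reads in WT isotype (1.13 and 1.65 CPM), 15 and 11 in WT anti-CTLA-4 (0.60 and 0.404 CPM), 48 and 70 in muMT isotype (1.57 and 2.37 CPM) and 53 and 32 in muMT anti-CTLA-4 (1.75 and 1.09 CPM). WT anti-CTLA-4 lay below the other 6 libraries. The fall in WT was 1.47 on the log2 scale (log2 -1.47 ± 0.39, adjusted p = 0.00399), with adjusted p = 0.0769 when WT isotype replicate 2 was left out and 0.0738 when WT anti-CTLA-4 replicate 2 was. The muMT value was -0.47 ± 0.30 (adjusted p = 0.225), and the effects were not shown to differ (difference -1.01 ± 0.50, adjusted p = 0.117; 0.0439 without muMT isotype replicate 2). Under anti-CTLA-4 Lcn2 was lower in WT than in muMT (log2 -1.502 ± 0.39, adjusted p = 0.00145), called in all but the fit without muMT anti-CTLA-4 replicate 1 (adjusted p = 0.0508), and under isotype the value was -0.50 ± 0.30 (adjusted p = 0.203).

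Lcn2 is known from neutrophils, and their markers moved in the same samples. Of 11 tested neutrophil markers, 6 fell in WT with anti-CTLA-4, where 15.9% of all tested genes fell, and the other 5 were not called. In muMT 2 rose and 3 fell. S100a8 had 359 reads under isotype and 110 under anti-CTLA-4 in WT, and S100a9 had 476 and 76. In muMT, S100a8 had 349 and 407 reads and S100a9 had 587 and 455 under the same treatments, while Retnlg went from 112 to 32 and Cxcr2 from 66 to 190. The summed CPM of the 12 neutrophil markers, most of it from Csf3r, which monocytes also express, was 149 to 152 in WT isotype, 141 in both WT anti-CTLA-4 libraries, 152 to 159 in muMT isotype and 137 to 139.6 in muMT anti-CTLA-4, with none at 0. Their part in the Lcn2 result was not tested. Hpx, the gene of the haem scavenger hemopexin, had 1 and 4 reads under isotype and 4 and 3 under anti-CTLA-4 in WT, and 10 and 8 under isotype and 16 and 3 under anti-CTLA-4 in muMT. As CPM of the group without TMM scaling these sums came to 0.0896 (95% Clopper-Pearson interval 0.0291 to 0.209), 0.135 (0.0543 to 0.278), 0.300 (0.178 to 0.474) and 0.308 (0.186 to 0.481) in the same order. The intervals cover counting error only, and PCR copies of a molecule count as several reads. No difference in Hpx between the antibodies was detectable at this depth in either host.

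**Figure D3:**
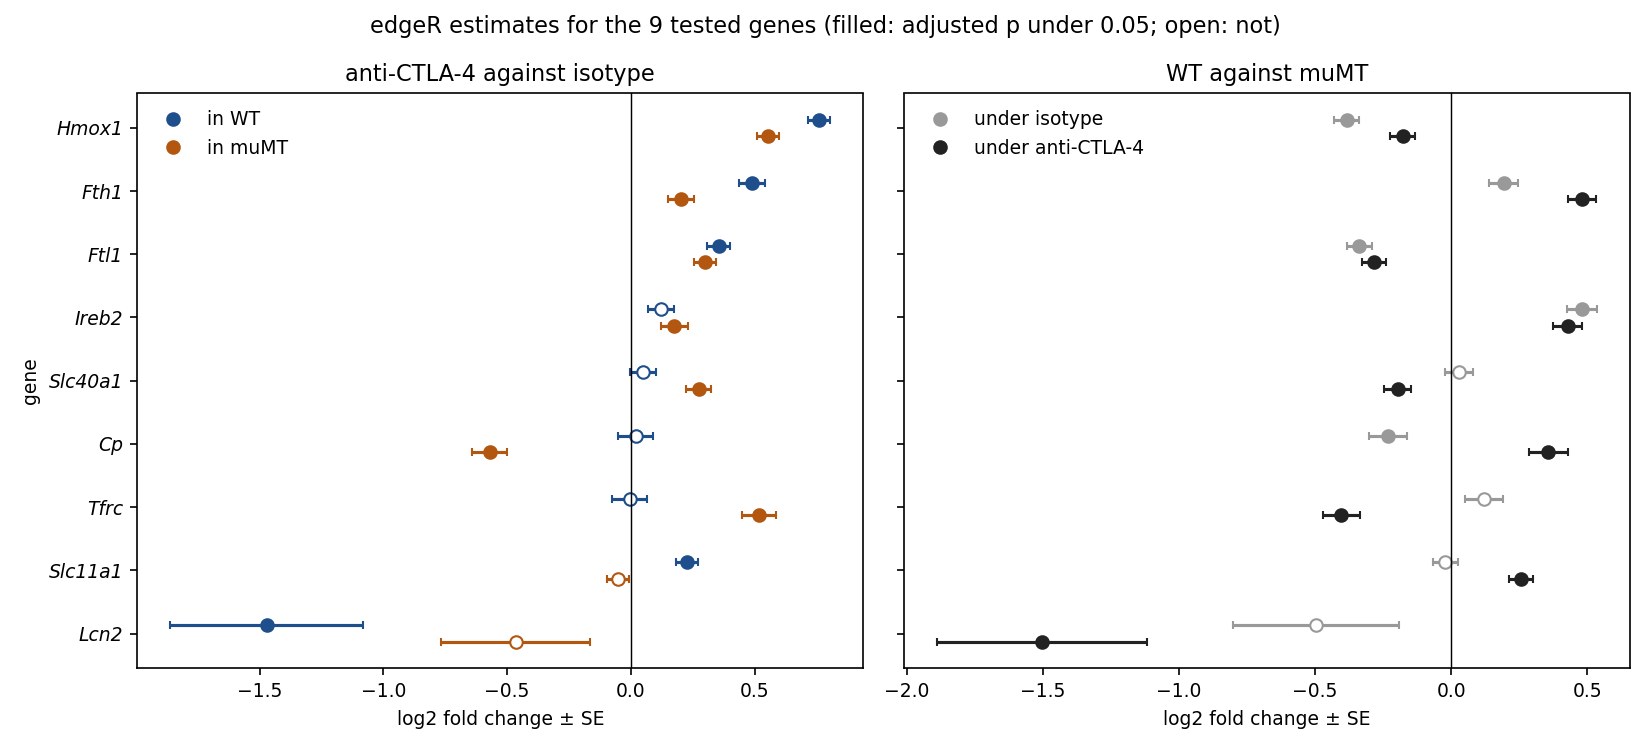
Log2 fold change (x axis, bars are SE) of the 9 tested genes (y axis) for anti-CTLA-4 against isotype in each host (left) and WT against muMT under each antibody (right); filled points have an adjusted p under 0.05 and open points do not. Hmox1, Fth1 and Ftl1 lie to the right in both hosts, while Tfrc and Cp move in muMT and stay near 0 in WT.

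The difference between hosts in the antibody effect was called for 6 of 9 genes, 4 with the higher value in WT and 2 with the lower, where 37.3% of all tested genes were called (17.5% higher, 19.8% lower). The 4 were Hmox1, Fth1, Slc11a1 and Cp, and the 2 were Slc40a1 and Tfrc. When the test asked for a change beyond 1.2-fold, the difference was called for Tfrc (adjusted p = 0.0107) and Cp (adjusted p = 0.00249) alone. The same demand left Hmox1, Fth1 and Lcn2 in WT and Hmox1, Tfrc and Cp in muMT. Between WT and muMT under isotype, 2 of 9 genes were higher in WT and 3 lower, where 39.2% of all tested genes were called (19.9% higher, 19.2% lower). Under anti-CTLA-4, 4 were higher and 5 lower, where 56.1% were called (27.4% higher, 28.7% lower). Beyond 1.2-fold these were Ireb2 and Hmox1 under isotype, and Fth1, Ireb2, Tfrc and Lcn2 under anti-CTLA-4. The comparisons share groups, so their counts do not support one another.

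Other genes of iron and haem metabolism were taken from lists of uptake, scavenging, storage, synthesis, breakdown, regulation and iron-sulphur cluster genes. There were 75 such genes with a row, and 63 were tested. In WT 13 rose and 14 fell with anti-CTLA-4, where 30.5% of all tested genes were called, and the median log2 fold change was -0.07. In muMT 20 rose and 17 fell, where 42.5% were called, with a median of 0.04. The effects differed between hosts for 33 of the 63, with 14 higher in WT and 19 lower, where 37.3% were called. The counts of each list below stand beside 14.7% of all tested genes higher and 15.9% lower in WT, and 22.1% higher and 20.4% lower in muMT.

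Among 15 tested genes of iron uptake and transport, 4 rose and 4 fell in WT, and 2 rose and 5 fell in muMT. Slc25a37, which encodes mitoferrin 1, the importer of iron into mitochondria, went from 26.6 ± 0.551 CPM to 73.1 ± 1.23 CPM in WT (SD, n = 2, log2 1.46 ± 0.07 SE, adjusted p = 7.45e-17) and from 18.4 ± 1.56 CPM to 26.6 ± 0.664 CPM in muMT (log2 0.53 ± 0.08, adjusted p = 1.47e-06). Its rise was larger in WT (difference 0.93, adjusted p = 1.92e-08). Red cell precursors are rich in it, and 10 erythroid markers summed to 3.48 to 4.44 CPM in the WT libraries and 1.52 to 1.99 CPM in the muMT libraries, with 1 to 3 of the 10 at 0 in each group. Trf, which encodes transferrin, the plasma carrier of iron, fell in WT from 1293 ± 16.1 CPM to 847 ± 0.227 CPM and in muMT from 1929 ± 33.1 CPM to 1305 ± 5.28 CPM. The log2 values were -0.61 and -0.56 (adjusted p = 1.11e-13 and 5.61e-13), and the effects were not shown to differ (adjusted p = 0.554). Oligodendrocytes also make Trf, and the summed CPM of 8 of their markers was 97.4 to 106 in WT isotype, 109 to 113 in WT anti-CTLA-4, 119 to 125 in muMT isotype and 119 to 121 in muMT anti-CTLA-4, with none at 0; their part in the Trf result was not tested. Slc11a2, the DMT1 gene, whose product carries iron out of endosomes, rose in WT (log2 0.39, adjusted p = 7.21e-07) and fell in muMT (log2 -0.20, adjusted p = 0.00242), the latter call being lost without muMT anti-CTLA-4 replicate 2 (adjusted p = 0.0566).

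Lower in abundance, Ltf, the lactoferrin gene of neutrophil granules, fell in WT from 3.50 ± 0.243 CPM to 0.856 ± 0.192 CPM (log2 -2.02, adjusted p = 4.69e-07), and it is itself among the neutrophil markers counted above. Its muMT value was 0.66 (adjusted p = 0.0561), called without muMT anti-CTLA-4 replicate 1 (adjusted p = 0.0417). Slc22a17, which encodes a receptor for the Lcn2 protein, fell in muMT from 5.16 ± 0.178 CPM to 2.03 ± 0.400 CPM (log2 -1.35, adjusted p = 8.79e-07), with a WT value of 0.02 (adjusted p = 0.949) that changed sign in unstranded counts.

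Haemoglobin and haem scavenging genes had 2 of 10 higher and 3 lower in WT, and 3 higher and 5 lower in muMT. Cd163, the haemoglobin-haptoglobin receptor of resident macrophages, had 369 reads under isotype and 19 under anti-CTLA-4 in WT (6.49 ± 0.359 CPM and 0.372 ± 0.266 CPM, log2 -4.14, adjusted p = 3.81e-14). In muMT it rose from 9.90 ± 0.245 CPM to 15.4 ± 0.816 CPM (log2 0.64, adjusted p = 5.6e-05), and the effects differed by -4.78 (adjusted p = 3.43e-14). Cd163 is itself among the border-associated macrophage markers, whose sums are given above. Slc48a1, which carries haem out of the phagolysosome, rose in WT from 51.4 ± 2.92 CPM to 85.9 ± 0.669 CPM (log2 0.74, adjusted p = 2.2e-11) and less in muMT (log2 0.19, adjusted p = 0.00988), where the call was lost without muMT isotype replicate 1 (adjusted p = 0.0758) or muMT anti-CTLA-4 replicate 1 (0.0761). The difference was 0.55 (adjusted p = 5.74e-06). Hp, the haptoglobin gene, fell in muMT (log2 -0.64, adjusted p = 5.69e-07), and its WT rise of 0.29 (adjusted p = 0.0254) was not called in DESeq2 (adjusted p = 0.0544), nor without WT isotype replicate 1 (0.129), WT isotype replicate 2 (0.0662) or WT anti-CTLA-4 replicate 1 (0.182). Flvcr2, a transporter of the haem exporter family, had 21 to 79 reads per group. Its muMT fall (log2 -1.14, adjusted p = 0.0375) was lost in DESeq2 (adjusted p = 0.0969) and in edgeR without the filter on low counts (0.0556). It was also lost in edgeR with only the libraries compared (0.0548) and with a minimum fold of 1.2 (0.0883). The same held without muMT isotype replicate 1 (log2 -0.85), muMT anti-CTLA-4 replicate 1 (-1.18) or muMT anti-CTLA-4 replicate 2 (-1.08).

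**Figure D4:**
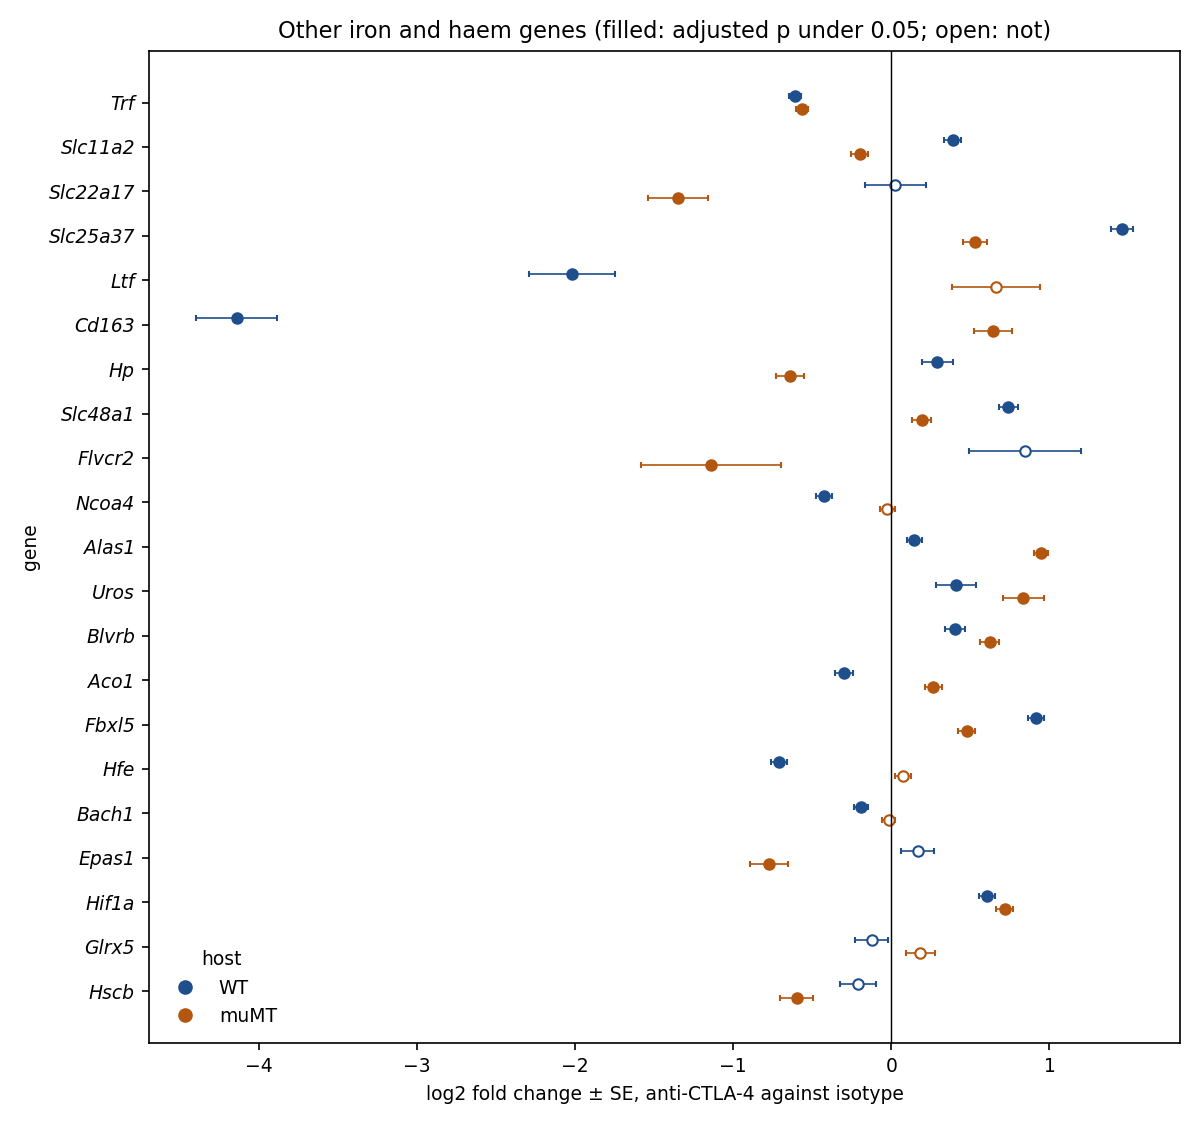
Log2 fold change with anti-CTLA-4 (x axis, bars are SE) of other iron and haem genes (y axis, in order of uptake, scavenging, storage, haem synthesis, breakdown, regulation and iron-sulphur assembly) in WT (blue) and muMT (orange); filled points have an adjusted p under 0.05 and open points do not. Slc25a37, Slc48a1 and Fbxl5 rise more in WT, Alas1 rises more in muMT, and Cd163 falls in WT and rises in muMT.

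Ncoa4, the receptor that delivers ferritin to lysosomes for iron release, fell in WT from 107 ± 0.959 CPM to 79.5 ± 2.30 CPM (log2 -0.43, adjusted p = 6.28e-08), with a muMT value of -0.03 (adjusted p = 0.712) and a difference of -0.40 (adjusted p = 3.31e-05). Ncoa4 thus fell in WT where both ferritin chains rose. Of the 5 tested storage and export genes, 1 rose and 1 fell in WT, and 2 rose and 0 fell in muMT. Hamp, which encodes hepcidin, the hormone that removes ferroportin from the cell surface, had 2 to 8 reads per group and was not tested.

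Of 8 tested haem synthesis genes, 2 rose and 3 fell in WT, and 4 rose and 1 fell in muMT. Alas1, the first enzyme of the route, went from 172 ± 5.32 CPM to 332 ± 1.95 CPM in muMT (log2 0.95, adjusted p = 9.18e-17). In WT it went from 167 ± 2.68 CPM to 185 ± 3.43 CPM (log2 0.15, adjusted p = 0.0155), a call lost in unstranded counts (adjusted p = 0.0596), without WT isotype replicate 2 (0.0654) and without WT anti-CTLA-4 replicate 1 (0.0568) or replicate 2 (0.176). The difference for Alas1 was -0.80 (adjusted p = 2.88e-11). Uros, a later enzyme of the route, rose in muMT (log2 0.84, adjusted p = 3.03e-06). Its WT value was 0.41 (adjusted p = 0.0138), a call lost without any 1 of the 4 WT libraries (adjusted p = 0.05 to 0.0898).

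In haem breakdown, Blvrb, a biliverdin reductase that acts after haem oxygenase, rose in WT (log2 0.40, adjusted p = 3.73e-06) and in muMT (log2 0.62, adjusted p = 6.56e-10). All 3 tested genes of this list rose in muMT, with a median log2 fold change of 0.21. In WT 1 of the 3 rose, and the median was -0.02.

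Regulators moved as well. Fbxl5, whose product senses iron and marks Ireb2 protein for degradation, rose in WT from 149 ± 5.23 CPM to 280.2 ± 8.16 CPM (log2 0.92, adjusted p = 6.21e-15) and in muMT from 131 ± 11.4 CPM to 182 ± 2.77 CPM (log2 0.48, adjusted p = 1.1e-08), with a difference of 0.44 (adjusted p = 1.84e-05). Aco1, which encodes iron regulatory protein 1, fell in WT (log2 -0.30, adjusted p = 0.000153) and rose in muMT (log2 0.27, adjusted p = 0.000275), and the difference was -0.57 (adjusted p = 1.64e-06). Hfe, a partner of the transferrin receptor, fell in WT from 115 ± 3.45 CPM to 70.5 ± 0.333 CPM (log2 -0.71, adjusted p = 2.22e-12), with a muMT value of 0.07 (adjusted p = 0.25). Bach1, a haem-sensing repressor of Hmox1, fell slightly in WT (log2 -0.19, adjusted p = 0.000606), and its muMT value was -0.02 (adjusted p = 0.79), of the other sign without muMT isotype replicate 1 (0.01) or muMT anti-CTLA-4 replicate 1 (0.0032). Hif1a, of the hypoxia response, rose in WT (log2 0.61, adjusted p = 1.8e-10) and in muMT (log2 0.72, adjusted p = 5.33e-12). Epas1, its relative, fell in muMT (log2 -0.77, adjusted p = 4.21e-06), with a WT value of 0.17 (adjusted p = 0.252). Endothelial cells are rich in Epas1, and of 8 endothelial markers 6 fell and 2 rose in muMT, while 6 rose and 1 fell in WT. Their sum was 159 to 160.3 CPM under isotype and 241 to 249 CPM under anti-CTLA-4 in muMT, 262 to 268 CPM and 318 to 329 CPM in WT, with none at 0. Most of both muMT sums was the 2 markers that rose there, Pecam1 (69.8 to 128 CPM) and Flt1 (25.1 to 79.7 CPM). Ptprb went from 829 to 309 reads in muMT and from 1210 to 1901 in WT. The part of endothelial cells, and of the fibroblast and mural cells given above, in the Epas1 result was not tested. Over the 11 tested regulators, 3 rose and 3 fell in WT, and 4 rose and 4 fell in muMT.

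Of 11 tested iron-sulphur cluster genes, 0 were called in WT by edgeR or DESeq2, while 2 passed an unadjusted p of 0.05 in edgeR. In muMT 2 rose and 2 fell, and under anti-CTLA-4 8 were lower in WT than in muMT and 0 higher, beside 28.7% of all tested genes called lower and 27.4% called higher. Under isotype 3 were lower in WT and 1 higher, beside 19.2% and 19.9% of all tested genes. Hscb, a co-chaperone of cluster transfer, fell in muMT (log2 -0.60, adjusted p = 2.52e-05). Glrx5, a mitochondrial glutaredoxin, was lower in WT than in muMT under anti-CTLA-4 (log2 -0.73, adjusted p = 2.84e-07) and under isotype (log2 -0.42, adjusted p = 0.000906). Its antibody effects were not shown to differ between hosts (difference -0.31, adjusted p = 0.0889), though unstranded counts called the difference (0.04).

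Genes with patterns most like those of Hmox1 and Slc40a1 were sought among 9761 genes of at least 5 mean CPM, by the root mean square difference of centred log2 CPM over the 8 libraries. For Hmox1 they were Ifi27l2a (0.0763), Emp3 (0.0911), Cdc42ep2 (0.105), Tnfrsf9 (0.108) and Hopx (0.108), with Pearson correlations of 0.958 to 0.979. Ifi27l2a, the nearest, went from 101 to 157 CPM in WT and from 126 to 189 CPM in muMT. For Slc40a1 they were Pwp1 (0.0199), Lonp2 (0.0248), Hnrnpm (0.0289), Zbtb1 (0.0319) and Mesd (0.032), with correlations of 0.963 to 0.984. Pwp1 stood at 43.4 and 44.4 CPM in WT and at 43.0 and 51.8 CPM in muMT, isotype first. These values describe 8 libraries in 4 groups.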

How the data were processed

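Each library has 1 deposited file of raw read counts per gene, laid out as STAR writes them. The tools cutadapt 5.0, STAR 2.7 and DESeq2 1.42.1 and the build mm39 are listed, per the submitters' processing notes. The annotation behind the counts is not given in the sources used here. The reverse-strand column was analysed after its 4 summary rows were set aside, since it held 23.3 to 26.5 reads for each read in the forward-strand column. Counts were scaled by TMM and fitted in edgeR 4.0.16 (R 4.3.3) by robust quasi-likelihood as 4 group means over 8 libraries, with 4 residual degrees of freedom. Each test also borrowed spread from the other genes, worth a median of 25.2 prior degrees of freedom. SE is the log2 fold change over the square root of F. The chi-square per degree of freedom between the libraries of a group was 1.75 to 7.09, so no library repeated another. Libraries held 24784639 to 31289104 reads in genes, and counting error was largest for Lcn2 and Hpx. The members and lists were chosen with earlier results of these data known. All members are named, as are Trf, Ncoa4, Cd163, Hamp, Slc11a2, Aco1, Bach1, Blvrb and, per list, up to 4 genes called with at least 1.5-fold change in a 2-group comparison, by smallest p; some genes this rule names are not reported here. DESeq2 1.42.0 was an alternative. The genes nearest in pattern were the 5 of smallest distance, without predicted genes.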

Additional observations from a re-analysis of the deposited data

Results flagged for a closer look

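For the following genes the test of the difference itself, the edgeR interaction of host and antibody, passed an adjusted p of 0.05. The values are log2, WT minus muMT. Among the 10 genes they were 0.21 for Hmox1, 0.29 for Fth1, -0.22 for Slc40a1, 0.28 for Slc11a1, -0.52 for Tfrc and 0.59 for Cp. Among genes of uptake, transport and scavenging they were 0.93 for Slc25a37, -2.68 for Ltf, 1.37 for Slc22a17, 0.59 for Slc11a2, -4.78 for Cd163, 0.55 for Slc48a1, 0.93 for Hp and 1.98 for Flvcr2. Among genes of storage, synthesis and breakdown they were -0.40 for Ncoa4, -0.80 for Alas1 and -0.22 for Blvrb. Among regulators and iron-sulphur genes they were 0.44 for Fbxl5, -0.78 for Hfe, 0.94 for Epas1, -0.57 for Aco1, -0.18 for Bach1 and 0.39 for Hscb. The differences for Blvrb and Hscb were lost in DESeq2 (adjusted p = 0.116 and 0.105). Blvrb also lost it on leaving out any 1 library other than muMT isotype replicate 1 and WT isotype replicate 2 (adjusted p = 0.0735 to 0.202). Hscb lost it on leaving out any 1 library other than the second replicates of muMT isotype and muMT anti-CTLA-4 (adjusted p = 0.0529 to 0.276). Flvcr2 lost it without WT anti-CTLA-4 replicate 1 (adjusted p = 0.0549). Bach1 lost it without muMT anti-CTLA-4 replicate 1 (adjusted p = 0.0693) or replicate 2 (0.104) and without WT anti-CTLA-4 replicate 1 (0.0805) or replicate 2 (0.0724). With 2 libraries in a group, no library could be tested for standing apart from its group.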

How the results depend on the processing

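Alternatives were DESeq2's size factors, DESeq2's Wald test, no filter on low counts, unstranded counts, no robust dispersion, only the libraries compared, a replicate block, a minimum fold of 1.2 in the test, and leaving out each library in turn, which leaves a group with 1 library assumed to vary like the others. In the order antibody in WT, antibody in muMT, difference, host under isotype and host under anti-CTLA-4, calls among the 9 tested genes numbered 5, 7, 6, 5 and 9, and the minimum fold left 3, 3, 2, 2 and 4. Among the 63 other iron and haem genes 27, 37, 33, 27 and 41 became 11, 19, 21, 10 and 22, and among all tested genes 5069, 7063, 6194, 6504 and 9311 became 1984, 3302, 3495, 2600 and 5857; no other alternative moved these counts by over 1.5 times. Without the filter, and in most fits that left out 1 library, Hpx was tested too, so the calls there were out of all 10 members.

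Replicate numbers gave no sign of pairing: deviations of same-numbered libraries from their group means correlated at -0.04 to 0.02. With the replicate block the calls among the 9 genes numbered 5, 7, 6, 5 and 9, among the other iron and haem genes 27, 36, 31, 25 and 39, and 3 calls of named genes were lost, the differences in Blvrb (adjusted p = 0.0547) and Hscb (0.0565) and the isotype difference in Slc48a1 (0.0574).

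The values below changed sign, and none was called in the reported fit; the cause was not tested. For the antibody in WT, Tfrc was 0.0097 with DESeq2's size factors, 0.0096 in the Wald test, 0.0018 with only the libraries compared and -0.14 to 0.14 leaving out 1 library. There Cp was -0.0082 unstranded and -0.063 to 0.095 leaving out 1 library, and Slc22a17 -1.53e-05 and -0.081 to 0.13. For the antibody in muMT, leaving out 1 library gave -0.10 to 0.024 for Slc11a1 and -0.026 to 0.014 for Bach1. For the difference it gave -0.037 to 0.14 for Ftl1 and -0.11 to 0.0015 for Ireb2. For the host under isotype, unstranded counts gave -0.017 for Slc40a1, -0.019 for Blvrb, -0.029 for Aco1 and -0.028 for Bach1. There, leaving out 1 library gave -0.086 to 0.0396 for Slc11a1, -0.025 to 0.25 for Tfrc, -0.12 to 0.39 for Flvcr2, -0.038 to 0.088 for Blvrb, -0.016 to 0.033 for Aco1 and -0.0064 to 0.034 for Bach1. For the host under anti-CTLA-4, Hif1a was 0.0019 with DESeq2's size factors and in the Wald test and -0.069 to 0.038 leaving out 1 library, and Hscb was -0.17 to 0.0905. Depth limits Lcn2, Hpx, Hamp and Flvcr2, whose reads per library were few.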
